A study of Mus musculus with 6 samples.

Results

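The genes described here are 43 members of the machinery that carries a secretory protein from the ribosome into the endoplasmic reticulum (ER) and out again in COPII vesicles. They were chosen by symbol from the table of counts, which lists 56953 genes, and each symbol matched 1 gene. By step, 6 genes serve targeting, 10 translocation, 5 signal cleavage, 7 glycosylation, and 15 export from the ER with retrieval to it.

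RNA was sequenced from primary pancreatic acini, the enzyme-secreting units of the exocrine pancreas, on day 3 of an assay of acinar-to-ductal metaplasia (ADM) in explant culture. There were 3 groups of 2 libraries each, namely untreated wild-type acini (WT), untreated acini of mice lacking Dkk3 in the whole body (DD), and DD acini given recombinant soluble DKK3 (DD + rDKK3). All cultures received dexamethasone and trypsin inhibitor, and all DD + rDKK3 cultures carried the same knockout as DD. The comparisons ask how these genes differed without Dkk3 and whether added DKK3 moved them.

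The labelled mouse ages were 10 and 11 weeks in WT, 12 and 13 weeks in DD, and 14 and 15 weeks in DD + rDKK3, so age and group cannot be told apart. The library totals ranged from 12018473 to 19750401 counts. Counts of Dkk3 itself were 10 and 1 for WT, 11 and 9 for DD, and 5 in each DD + rDKK3 library. The null allele lacks only the exon with the secretion signal and the counts are per gene, so Dkk3 checks none of the genotype labels. WT 2 is labelled female but held 2013 counts over 4 Y-linked genes, inside the range of 1493 to 2992 in the 5 libraries labelled male, and 16 counts of Xist. The labelled ages differ within each group and rise in library order from 10 to 15 weeks, but the labels name no animal for any library. The p-values thus measure the spread between these libraries, which may be technical. Replicates differed beyond counting noise in every group, with a chi-square per degree of freedom from 22.96 to 65.68.

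A secretory protein begins with a signal peptide, which the signal recognition particle (SRP) binds as it leaves the ribosome. The SRP receptor hands the ribosome to the Sec61 channel, the chain is threaded into the ER lumen, the signal peptidase complex cuts off the signal peptide, and the oligosaccharyltransferase (OST) adds N-glycans. Cargo then leaves in vesicles whose COPII coat is built by the GTPase SAR1, an inner layer of SEC23 and SEC24 and an outer layer of SEC13 and SEC31. Acinar cells are known for a very large ER, since digestive enzymes make up most of what they synthesise.

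Promoter sequences are shown for 4 members because each holds short motifs that are known from the ER stress response. Sec23a, Spcs2 and Srp9 were among the 7 members at an unadjusted p under 0.05 in DD against WT, and Sec24d is shown for its TGACGTG match alone. In the RefSeq table of windows, 32 of the 43 members matched, with 35 windows. Each line runs 5′ to 3′ on the gene's strand from 250 bases before to 30 bases after the annotated start, in GRCm38.p6. Capitals mark TGACGTG (the core bound by ATF6 and XBP1), CCAAT and CCACG on either strand. In Sec23a and Sec24d the TGACGTG match overlaps the CCACG match. The windows are chr12:59011988-59012267 on the minus strand (Sec23a), chr3:123267246-123267525 on the plus strand (Sec24d), chr7:99858854-99859133 on the minus strand (Spcs2) and chr1:182124487-182124766 on the plus strand (Srp9).
Sec23a: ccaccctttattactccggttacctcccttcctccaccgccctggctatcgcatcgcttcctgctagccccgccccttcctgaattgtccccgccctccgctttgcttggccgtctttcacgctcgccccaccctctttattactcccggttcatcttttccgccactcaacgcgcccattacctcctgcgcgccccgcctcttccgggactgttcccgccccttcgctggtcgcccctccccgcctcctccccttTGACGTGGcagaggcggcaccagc
Sec24d: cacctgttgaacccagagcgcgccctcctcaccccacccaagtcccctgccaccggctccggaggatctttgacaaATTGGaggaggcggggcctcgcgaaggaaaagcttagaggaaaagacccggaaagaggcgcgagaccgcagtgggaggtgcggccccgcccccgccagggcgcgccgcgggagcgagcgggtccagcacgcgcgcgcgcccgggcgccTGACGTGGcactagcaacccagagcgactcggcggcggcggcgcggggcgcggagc
Spcs2: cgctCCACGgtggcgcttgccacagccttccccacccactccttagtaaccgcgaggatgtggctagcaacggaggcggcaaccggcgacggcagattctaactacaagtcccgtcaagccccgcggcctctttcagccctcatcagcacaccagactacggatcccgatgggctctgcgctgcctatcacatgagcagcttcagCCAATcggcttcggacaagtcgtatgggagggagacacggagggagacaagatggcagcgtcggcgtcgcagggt
Srp9: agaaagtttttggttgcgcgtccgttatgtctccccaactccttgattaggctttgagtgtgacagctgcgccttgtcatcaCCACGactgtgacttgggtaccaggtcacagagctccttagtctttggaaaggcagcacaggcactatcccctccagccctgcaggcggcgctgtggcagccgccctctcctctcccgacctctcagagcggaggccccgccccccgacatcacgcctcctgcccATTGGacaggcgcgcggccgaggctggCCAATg

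Over whole windows of the table, on both strands, TGACGTG was in 2 of the 35 member windows (5.71%), those of the COPII genes Sec23a and Sec24d, and in 2.86% of the windows of all genes tested. CCAAT was in 16 member windows (45.7%) against 37.5%, and CCACG in 22 (62.9%) against 46.1%. The ER stress response element ERSE, which joins CCAAT and CCACG across a spacer of 9 bases, was in 0 member windows and in 0.132% of windows of genes tested. ERSE-II was in 0 member windows and in 0.0659%. These are matches of letters in a window and say nothing of binding.

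All 43 members passed the filter on low counts, with 145 counts or more in every library. Values below are CPM, counts scaled to library depth after TMM normalisation, and log2 fold changes come from edgeR's quasi-likelihood model with Benjamini-Hochberg adjustment over 14738 genes. No member passed an adjusted p of 0.05 in any comparison, against 0.0407% of all genes in DD against WT, 0.0% in DD + rDKK3 against DD, and 0.0475% in DD + rDKK3 against WT. At an unadjusted p under 0.05 there were 7 members in DD against WT, 0 in DD + rDKK3 against DD, and 16 in DD + rDKK3 against WT. DESeq2 gave 0 members at an adjusted p under 0.05 in each comparison and 9, 0 and 16 at an unadjusted one, and limma-voom called 0 members, with 7, 0 and 15 at an unadjusted one. In DD against WT they had 1100 and 1077 of all 14738 genes at an unadjusted p under 0.05. Without the low-count filter, edgeR called 1 member in DD against WT (Sec11c), 0 in DD + rDKK3 against DD, and 3 in DD + rDKK3 against WT. In DD against WT that fit called 528 of 26506 genes, against 6 of 14738 in the main fit. In DD + rDKK3 against DD it called 73.

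In DD against WT, all 21 members with the shortest coding sequences had a negative fold change, as did 11 of the 22 others, but 0 passed the adjusted test. Among all coding genes tested, 1888 of 2466 below the same length had one, as did 4078 of the 10220 others. The libraries of DD lay below both WT libraries for 7 of the 21, near the 803 of 2466 among all short coding genes tested. Of the 43 members 32 had a negative fold change, with a median of -0.18 on the log2 scale against 0.02 over all genes tested. The 7 at an unadjusted p under 0.05 were 6 lower (14.0% of members, against 3.99% of all genes) and 1 higher (2.33%, against 4.27%). The lower ones were Sec11c, Sec11a and Spcs2 of the signal peptidase, Srp9 and Srp19 of the SRP, and the cargo receptor Tmed2, and the higher one was Sec23a. Of the 6 lower, 5 were among the 21 shortest members, against 239 of the 2466 coding genes tested that short. The libraries of DD lay below both WT libraries for 11 members (25.6%, against 19.7% of all genes) and above both for 1 (2.33%, against 18.1%).

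The members' median depended on single libraries. Without WT 1 it was -0.02, against 0.01 over all genes tested, and without WT 2 it was -0.31, against 0.05. Without DD 1 and without DD 2 it was -0.14 and -0.13, against 0.005 and 0.0002 over all genes. Counts at an unadjusted p moved too, among the members and among all genes. They are not given for fits with 1 library in a group. Without either DD + rDKK3 library, which enters this comparison through the filter, the scaling and the spread, the median was -0.17. Scaling also mattered. With library size alone the median of all genes moved to 0.22 and that of the members to 0.04, with 17 members below 0, so the members still lay below all genes. As a share of all counts, the members took 0.539% and 0.531% in WT, 0.532% and 0.552% in DD, and 0.52% in both DD + rDKK3 libraries, so on this scale DD did not lie below WT.

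**Figure D1:**
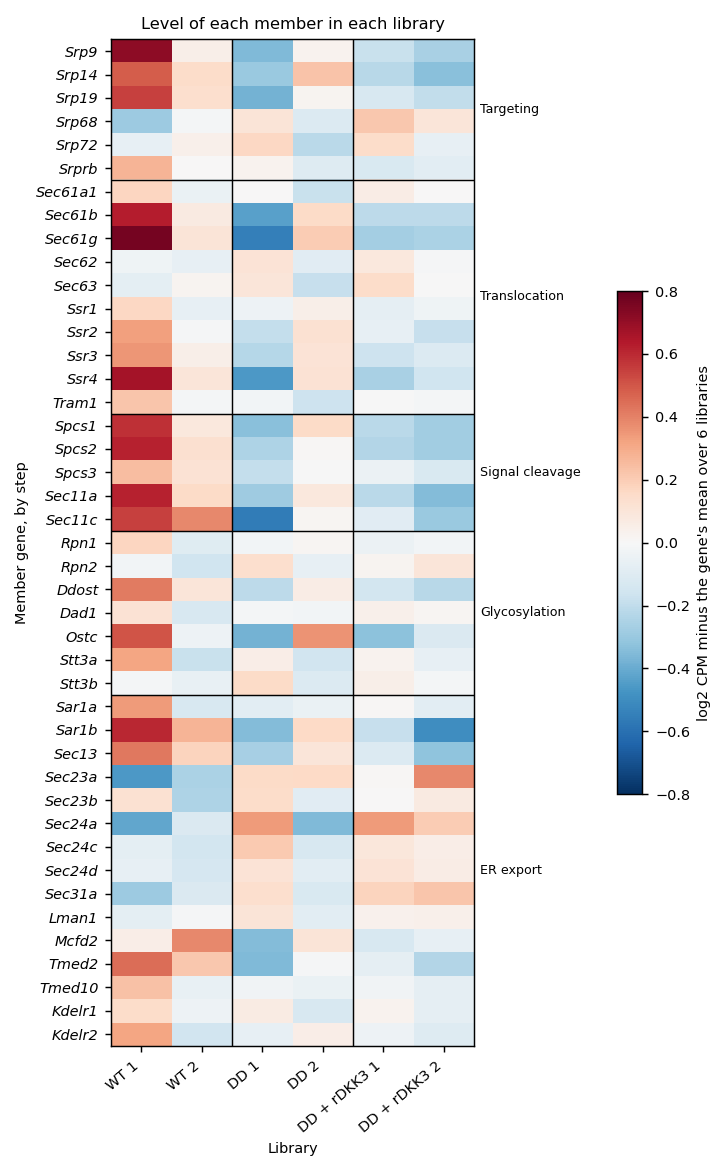
Heat map of the 43 members (rows, by step) in the 6 libraries (columns). Colour gives log2 CPM minus the gene's mean over the 6 libraries, and the deepest reds stand in WT 1 for small subunits such as Srp9, Sec61g and Ssr4, whereas DD 1 is blue for the same genes.

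Of the 6 targeting genes, Srp9 and Srp19 did not overlap between WT and DD and the other 4 did. Both lay below WT, as did 19.7% of all genes and 803 of the 2466 coding genes tested under 741 coding bases. Srp9, whose product pairs with SRP14 to pause translation, had 179 and 113 CPM in the WT pair, 85.6 and 112 in the DD pair, and 96.8 and 91.3 with rDKK3. Both DD values were below both WT values, but DD 2 nearly met WT 2. Srp14 had levels of 105.7 and 83.7 CPM in WT, against 61.6 and 88.5 in DD and 64.96 and 59.9 after rDKK3, so WT and DD overlapped.

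Srp19, which helps to assemble the particle on its RNA, had 74.6 and 55.9 CPM in the WT cultures, 39.3 and 51.7 in the DD cultures, and 46.7 and 44.4 when rDKK3 was added. Its DD-to-WT log2 fold change was -0.52 ± 0.20 (SE), with an adjusted p of 0.586 (edgeR). Both DD values lay below both WT values. Srp68, a large protein of the particle, ran the other way, with 87.2 and 105.5 CPM in the WT pair, 114.5 and 99.1 in the DD pair, and 124 and 114 with rDKK3. WT and DD overlapped in Srp68, and both DD + rDKK3 values stood above both WT values.

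Srp72, the partner of SRP68, had levels of 159 and 172 CPM in WT, against 187 and 144 in DD and 184 and 159 after rDKK3. Srprb, the membrane subunit of the SRP receptor, had 67.4 and 55.8 CPM in the WT cultures, 56.9 and 51.8 in the DD cultures, and 51.2 and 52.6 when rDKK3 was added. In both genes WT and DD overlapped. The step as a whole had a median log2 fold change of -0.26 in DD against WT, with 5 of its 6 genes below 0.

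Within the Sec61 channel, all 3 genes overlapped between WT and DD. Sec61a1, the pore-forming subunit, had 210.2 and 179.7 CPM in the WT pair, 187 and 165 in the DD pair, and 195 and 187 with rDKK3, and the groups overlapped. Sec61b had levels of 108.7 and 73.6 CPM in WT, against 51.8 and 77.9 in DD and 60.7 and 60.8 after rDKK3. Sec61g had 75.4 and 47.8 CPM in the WT cultures, 30.3 and 51.1 in the DD cultures, and 36.8 and 37.2 when rDKK3 was added. For both small subunits DD 2 stood above WT 2, so WT and DD overlapped, and both DD + rDKK3 libraries were below both WT libraries.

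The subunits of TRAP, a complex beside the channel that assists some signal peptides, were graded. Ssr4 had 318 and 215 CPM in the WT pair, 145.5 and 217 in the DD pair, and 167 and 179.5 with rDKK3. Ssr3, the member with the highest level per kilobase of canonical transcript in every group (157 CPM in WT), had levels of 513 and 415 CPM in WT, against 343 and 434 in DD and 358 and 372 after rDKK3. Ssr1 had 152.6 and 130 CPM in the WT cultures, 132 and 140.4 in the DD cultures, and 129 and 133 when rDKK3 was added. All 4 TRAP genes had overlapping WT and DD libraries, while Ssr2, Ssr3 and Ssr4 did not overlap between WT and DD + rDKK3. These 3 lay below WT, as did 27.1% of all genes and 1460 of the 2466 coding genes tested under 741 coding bases.

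Ssr2 ran from 99.3 CPM in DD 1 to 142 in WT 1. Sec62 and Sec63, which act with the channel on chains that enter after translation, ranged from 204 to 235 and from 109.5 to 138 CPM over the 6 libraries. Tram1, a channel-associated membrane protein, had 239 and 203.2 CPM in WT and 202.0 and 183 in DD. In translocation 9 of 10 genes had a negative fold change in DD against WT, with a median of -0.20.

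Signal cleavage was the step with the lowest median. All 5 genes of the signal peptidase complex had a negative fold change in DD against WT, with a median of -0.49 and a range of -0.71 to -0.28, and 4 of 5 did not overlap between the groups, against 19.7% of all genes and 803 of the 2466 coding genes tested with a coding sequence under 741 bases. Against WT, DD + rDKK3 had a median of -0.65, and all 5 did not overlap, against 27.1% of all genes and 1460 of those 2466. The summed level of the step was 712 ± 127 CPM for WT, 515 ± 92.0 for DD and 481 ± 21.97 with rDKK3 (SD over 2 libraries).

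Sec11c, a catalytic subunit, had 126 and 113 CPM in the WT pair, 58.5 and 87.4 in the DD pair, and 81.2 and 70.3 with rDKK3. DD 1 was the lowest library and neither DD library reached WT. Its DD-to-WT log2 fold change was -0.71 ± 0.21 (SE), with an adjusted p of 0.586 (edgeR), and no member had a smaller unadjusted p in this comparison. The other catalytic gene, Sec11a, had levels of 137 and 99.0 CPM in WT, against 73.2 and 94.5 in DD and 76.7 and 70.1 after rDKK3. Its DD-to-WT log2 fold change was -0.49 ± 0.21, with an adjusted p of 0.586 (edgeR).

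Spcs2, an accessory subunit, had 185 and 132 CPM in the WT cultures, 101.9 and 122 in the DD cultures, and 102.5 and 99.6 when rDKK3 was added. Its DD-to-WT log2 fold change was -0.50 ± 0.20, with an adjusted p of 0.586 (edgeR). Spcs1 had 215 and 152 CPM in the WT pair, 114 and 159 in the DD pair, and 123 and 118 with rDKK3, so DD 2 overlapped WT. Spcs3 had levels of 139 and 126.5 CPM in WT, against 102.4 and 117 in DD and 113 and 107.4 after rDKK3.

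Glycosylation varied least between groups in its summed level, which was 1054 ± 135 CPM for WT, 1010 ± 14.9 for DD and 990.5 ± 4.005 with rDKK3 (SD over 2 libraries). Dad1, a small OST subunit, had 93.9 and 79.4 CPM in the WT cultures, 85.9 and 85.4 in the DD cultures, and 89.4 and 87.8 when rDKK3 was added, and so lay within the WT values in every library. Ddost, another accessory subunit, had 202.3 and 162 CPM in the WT pair, 131 and 158 in the DD pair, and 137 and 130 with rDKK3. It was the 1 gene of this step at an unadjusted p under 0.05 in DD + rDKK3 against WT. Ostc, which is found in OST complexes built on STT3A and attached to the channel, varied widely between replicates, with levels of 87.2 and 59.8 CPM in WT, against 47.2 and 79.0 in DD and 48.9 and 56.6 after rDKK3.

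The scaffold genes Rpn1 and Rpn2 ranged from 169 to 203.6 and from 157.5 to 193 CPM over the 6 libraries. The 2 catalytic genes did not separate the groups. Stt3a, whose enzyme acts during translation, had 175 and 124 CPM in the WT cultures, 145 and 126 in the DD cultures, and 143 and 133 when rDKK3 was added, with a DD-to-WT log2 fold change of -0.13 ± 0.20 (adjusted p = 0.807, edgeR). Stt3b, whose enzyme also acts after translation, had 214 and 207 CPM in the WT pair, 240.5 and 201 in the DD pair, and 223 and 214 with rDKK3, with a log2 fold change of 0.07 ± 0.17 (adjusted p = 0.891, edgeR).

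In the COPII coat, Sar1b and Sec13 were below WT in both DD libraries, Sec23a was above it, and the other 6 genes overlapped, including the second SAR1 gene, Sar1a. Of all genes, 19.7% lay below WT in this way and 18.1% above it. Sar1b (chr11:51654514-51682752 of GRCm39, plus strand) had levels of 187 and 148 CPM in WT, against 96.5 and 137 in DD and 108 and 86.8 after rDKK3, with all WT values above the rest. Its DD-to-WT log2 fold change was -0.52 ± 0.23 (adjusted p = 0.586, edgeR). Its paralog Sar1a, of the same coding length, had 179 and 129 CPM in the WT cultures, 133 and 136 in the DD cultures, and 142 and 133 when rDKK3 was added, with a log2 fold change of -0.20 ± 0.19 (adjusted p = 0.701, edgeR).

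Sec13, part of the outer coat and also of the nuclear pore, had 167 and 142 CPM in the WT pair, 104.1 and 134 in the DD pair, and 116 and 99.8 with rDKK3. Its outer coat partner Sec31a had levels of 96.9 and 109.4 CPM in WT, against 130.3 and 109.1 in DD and 134 and 139 after rDKK3. Sec31a overlapped between WT and DD, with a log2 fold change of 0.21 ± 0.16 (adjusted p = 0.637, edgeR).

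Sec23a (chr12:59005169-59058803 of GRCm39, minus strand), an inner coat subunit that makes SAR1 hydrolyse GTP, was the member with the largest positive fold change. It had 14.2 and 16.4 CPM in the WT cultures, 21.8 and 21.9 in the DD cultures, and 19.7 and 25.6 when rDKK3 was added, so both WT libraries were below the other 4. The DD-to-WT log2 fold change was 0.51 ± 0.19, with an adjusted p of 0.586 (edgeR). Sec23b had 62.3 and 48.2 CPM in the WT pair, 63.3 and 53.7 in the DD pair, and 57.2 and 60.1 with rDKK3, with a log2 fold change of 0.09 ± 0.17 (adjusted p = 0.865, edgeR). Per kilobase of canonical transcript, Sec23a stood at 3.60 CPM in WT and Sec23b at 19.7, so Sec23b was the more abundant paralog.

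The SEC24 proteins choose cargo. Sec24a had levels of 24.3 and 29.9 CPM in WT, against 41.2 and 25.4 in DD and 41.1 and 37.4 after rDKK3, so DD 2 lay with WT, and the DD-to-WT log2 fold change was 0.30 ± 0.24 (adjusted p = 0.652, edgeR). Sec24c had 89.8 and 85.9 CPM in the WT cultures, 110.0 and 86.8 in the DD cultures, and 101.1 and 98.6 when rDKK3 was added, with a log2 fold change of 0.16 ± 0.17 (adjusted p = 0.709, edgeR). Sec24d had 37.7 and 36.0 CPM in the WT pair, 42.6 and 37.2 in the DD pair, and 42.6 and 41.1 with rDKK3, with a log2 fold change of 0.12 ± 0.14 (adjusted p = 0.761, edgeR). None of the 3 separated WT from DD, and all 3 were higher in both DD + rDKK3 libraries than in both WT libraries. Of all genes, 27.9% were so too, as were 3520 of the 10220 coding genes tested with 741 coding bases or more. Per kilobase the order in WT was Sec24c at 19.4, Sec24d at 9.44 and Sec24a at 4.12 CPM.

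Among cargo receptors, Tmed2, a p24 protein of early secretory vesicles, had levels of 114 and 96.7 CPM in WT, against 65.1 and 82.8 in DD and 79.0 and 70.8 after rDKK3. Both DD libraries lay below both WT libraries, and the log2 fold change was -0.51 ± 0.18 (adjusted p = 0.586, edgeR). Its partner Tmed10 had 168.5 and 137.3 CPM in the WT cultures, 140.5 and 138.0 in the DD cultures, and 140.0 and 136 when rDKK3 was added. Reads of Tmed10 and Spcs2 can be shared with a listed pseudogene copy of each.

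Lman1 and Mcfd2 form the receptor that carries blood coagulation factors and other glycoproteins. Lman1 ranged from 91.2 to 104.0 CPM over the 6 libraries. Mcfd2 had 165 and 208 CPM in the WT pair, 125 and 171 in the DD pair, and 146 and 152 with rDKK3, and it was the exception among small genes in that WT 2 exceeded WT 1.

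The KDEL receptors return escaped ER proteins. Kdelr1 had levels of 154 and 135 CPM in WT, against 146 and 127 in DD and 142 and 132.5 after rDKK3, with a DD-to-WT log2 fold change of -0.08 ± 0.16 (adjusted p = 0.856, edgeR). Kdelr2 had 100.1 and 72.6 CPM in the WT cultures, 76.9 and 83.6 in the DD cultures, and 78.2 and 75.0 when rDKK3 was added, with a log2 fold change of -0.10 ± 0.18 (adjusted p = 0.84, edgeR). Both overlapped between all groups. The 15 export genes together had a median of -0.08 in DD against WT, with 8 below 0 and 7 above.

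**Figure D2:**
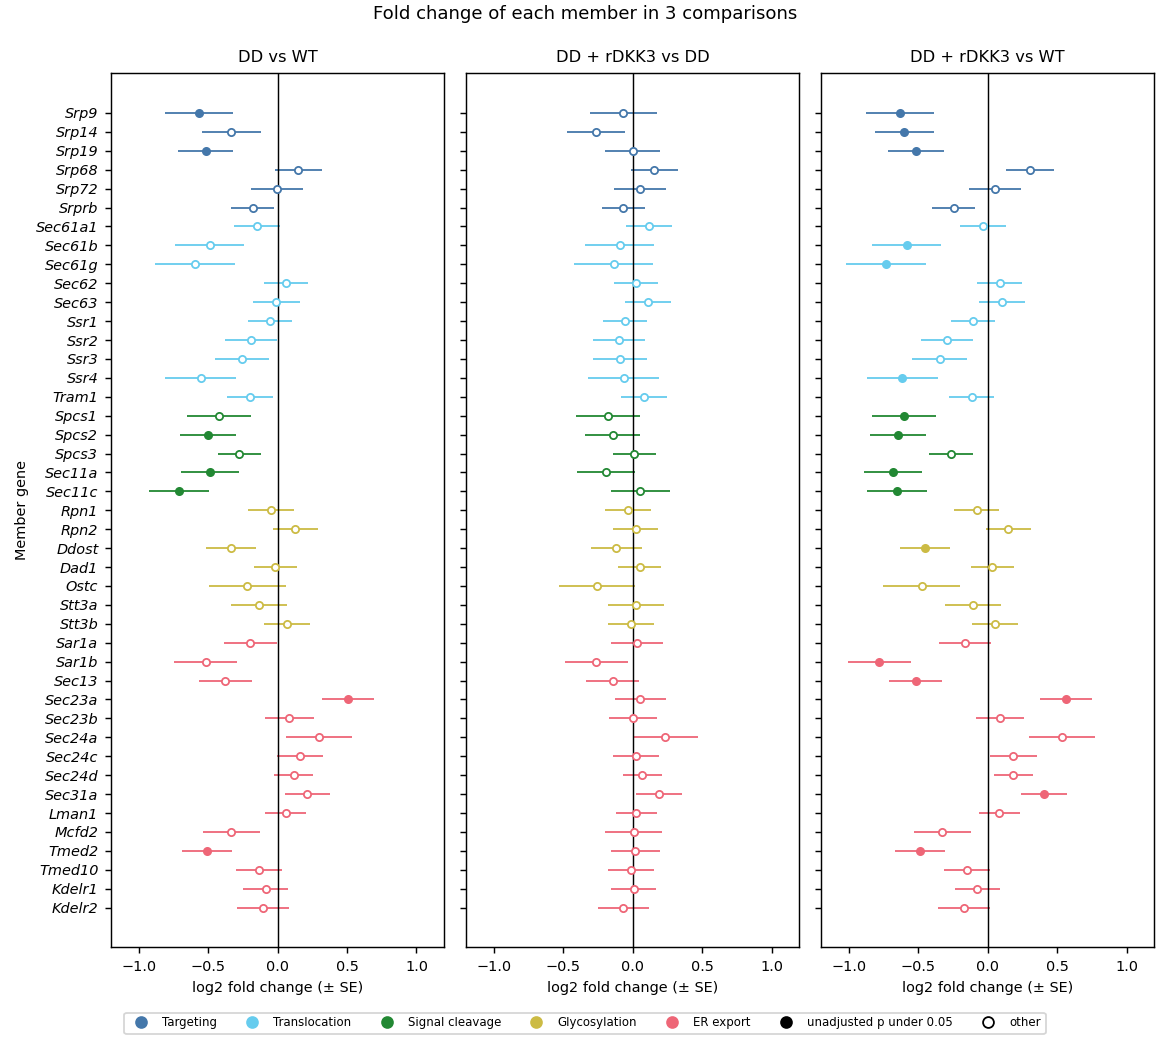
Log2 fold changes of the 43 members (rows) with SE in the 3 comparisons, coloured by step, and filled where the unadjusted p was under 0.05. In DD + rDKK3 against DD no point is filled, and the 5 signal cleavage genes lie left of 0 in both comparisons with WT.

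Adding DKK3 to DD acini moved no member past the test. In DD + rDKK3 against DD, 20 members were below 0 and 23 above, the median was 0.003 against -0.003 over all genes, and the fold changes ranged from -0.26 to 0.24. At an unadjusted p under 0.05 there were 0 members lower (against 1.38% of all genes) and 0 higher (against 0.597%). The 2 groups did not overlap for 1 member that was lower, Rpn1 (2.33%, against 14.4% of all genes), and for 3 that were higher, Tram1, Dad1 and Sec31a (6.98%, against 15.1%). These 4 were named after their values were seen.

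The smallest p among lower members belonged to Srp14, with a log2 fold change in DD + rDKK3 against DD of -0.26 ± 0.21, followed by Sar1b at -0.26 ± 0.23, Ostc at -0.26 ± 0.28 and Sec11a at -0.19 ± 0.21. Among higher members they were Sec31a at 0.19 ± 0.16, Sec24a at 0.24 ± 0.24, Srp68 at 0.16 ± 0.17 and Sec61a1 at 0.12 ± 0.17. The adjusted p was 1.00 for each of the 8 (edgeR). The members' median was -0.07 without DD 1 and 0.02 without DD 2, against -0.02 and 0.01 over all genes. With same-numbered Dkk3-null libraries blocked together, 0 members were at an unadjusted p under 0.05 (edgeR). That fit called 194 of 14665 genes at an adjusted p under 0.05, against 0 in the main fit. It holds only the Dkk3-null libraries and adds a block term, so few residual degrees of freedom remained and its calls are uncertain.

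The DD + rDKK3 libraries were set against the same WT libraries as DD, so both comparisons share them. In DD + rDKK3 against WT, 29 members were below 0, with a median of -0.16 against 0.02 over all genes. At an unadjusted p under 0.05 there were 14 lower (32.6%, against 8.0% of all genes) and 2 higher (4.65%, against 7.34%). Of the 14, 11 were among the 21 members with a coding sequence under 741 bases. Of all coding genes tested that short, 601 of 2466 were lower at this p. The groups did not overlap for 20 members that were lower (46.5%, against 27.1% of all genes) and for 10 that were higher (23.3%, against 27.9%). Of those 10, 5 were genes of the COPII coat. All 10 were among the 22 members with 741 coding bases or more. Of the 10220 coding genes tested of that length, 3520 also lay above both WT libraries. Of the 20 members that were lower, 16 were among the 21 shorter ones, against 1460 of the 2466 coding genes that short.

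The lower members with the smallest p were Sar1b at -0.78 ± 0.23, Sec11a at -0.68 ± 0.21, Spcs2 at -0.65 ± 0.20 and Sec11c at -0.65 ± 0.21 on the log2 scale, each with an adjusted p of 0.322 (edgeR). The higher ones were Sec23a at 0.56 ± 0.19 and Sec31a at 0.40 ± 0.16, both with an adjusted p of 0.322, then Sec24a at 0.53 ± 0.24 with an adjusted p of 0.333 and Srp68 at 0.30 ± 0.17 with an adjusted p of 0.387 (edgeR). Without WT 1 the members' median was 0.02, and without WT 2 it was -0.33. The counts at an unadjusted p also moved when a library was left out. With library size alone the median of all genes was 0.18 and that of the members 0.02.

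Most of the members that were lower had a short coding sequence. Coding lengths of the canonical transcripts in GENCODE M39 ran from 258 bases (Srp9) to 3690 bases (Sec31a), with a median of 741 bases. Of the 21 members below that length, 21 had a negative fold change in DD against WT, with a median of -0.34. Of the other 22, 11 were below 0, with a median of 0.03. Between DD + rDKK3 and WT the short members had a median of -0.49 and the others one of 0.07.

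The same trend ran through all coding genes. Of the 12686 coding genes tested with a coding length, 2466 were shorter than 741 bases, and their median in DD against WT was -0.21, against 0.08 for the 10220 others. Their medians in DD + rDKK3 against WT were -0.34 and 0.11. Set against the median of all coding genes in the same of 7 length ranges, the members differed by a median of -0.12 in DD against WT, with 32 below and 11 above. For DD + rDKK3 against WT the value was -0.11, with 29 below and 14 above. On this scale Sec23a lay farthest above its length range (0.38) and Sec11c farthest below (-0.49) in DD against WT. In the comparison of DD + rDKK3 with WT they were Dad1 (0.47), with 339 coding bases, and Ddost (-0.48), with 1323.

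By library, the short members had a median of 0.48 above their mean on the log2 CPM scale in WT 1, 0.09 in WT 2, -0.33 in DD 1, 0.05 in DD 2, and -0.13 and -0.18 in DD + rDKK3. All short coding genes stood at 0.30, 0.07, -0.17, 0.10, -0.14 and -0.15 in the same order. WT 1 was thus the highest and DD 1 the lowest for both, and DD 2 was near WT 2. With an offset for coding length in the model, chosen after seeing the data, 4 members were at an unadjusted p under 0.05 in DD against WT and 6 in DD + rDKK3 against WT, with medians of -0.09 and -0.10. With this offset, 1011 of 12677 genes were at that p in DD against WT. The cause of the length trend was not tested.

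**Figure D3:**
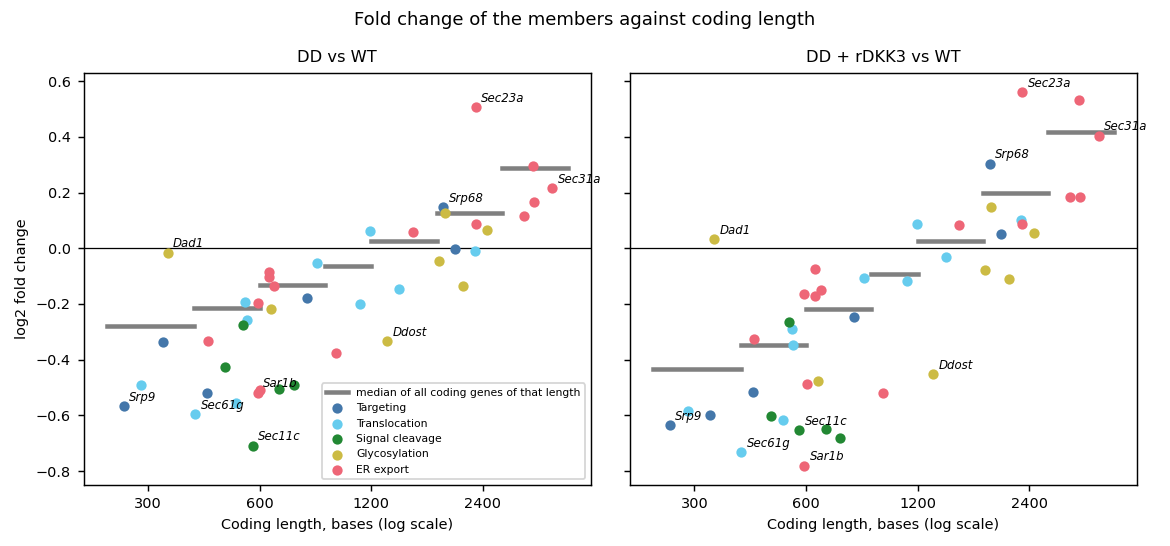
Log2 fold change of the 43 members (points, coloured by step) against coding length in bases on a log axis, for DD against WT and DD + rDKK3 against WT. Grey lines give the median of all coding genes in 7 length ranges. Both rise from left to right, and most members below 741 bases lie under the grey lines.

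Ratios between subunits within a library do not depend on scaling, but the length trend was not removed from them. Srp9 and Srp68 have 258 and 1875 coding bases, and Sec61g and Sec61a1 have 402 and 1428. Srp9 over Srp68, on a log2 scale of counts, was 1.04 and 0.10 in the WT pair, -0.42 and 0.17 in the DD pair, and -0.36 and -0.32 with rDKK3. Sec61g over Sec61a1 was -1.48 and -1.91 in the WT pair, -2.62 and -1.69 in the DD pair, and -2.40 and -2.33 with rDKK3. In both ratios DD 2 lay inside the WT range, and both DD + rDKK3 libraries lay below WT.

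Sar1b over Sar1a was 0.06 and 0.20 in the WT pair, -0.46 and 0.01 in the DD pair, and -0.40 and -0.61 with rDKK3, so both WT values were the highest. Their coding sequences are of equal length, but their canonical transcripts have 1261 and 2657 bases. With the transcript length offset the DD-to-WT log2 fold changes were -0.35 for Sar1b and -0.15 for Sar1a. Sec23a over Sec23b, 2295 and 2301 coding bases long, was -2.13 and -1.55 in the WT pair, -1.54 and -1.30 in the DD pair, and -1.54 and -1.23 with rDKK3. Both WT values were the lowest, by a small margin for WT 2. Sec13 over Sec31a was 0.79 and 0.37 in the WT pair, -0.32 and 0.30 in the DD pair, and -0.21 and -0.48 with rDKK3. Both WT values were the highest, but the coding lengths are unlike, at 966 and 3690 bases. All coding genes of 900 to 1200 bases had a median of -0.06 in DD against WT, and those over 2700 bases one of 0.29. The part of length in this ratio was not tested.

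Ssr4 over Ssr1, 519 and 858 coding bases long, was 1.06 and 0.72 in the WT pair. It was 0.14 and 0.63 in the DD pair and 0.37 and 0.43 with rDKK3, so both WT values were the highest. The pairs that follow overlapped between WT and DD. Sec11c over Sec11a was -0.12 and 0.19 in the WT pair, -0.32 and -0.11 in the DD pair, and 0.08 and 0.00 with rDKK3. Both DD values of this ratio lay below both values with rDKK3. Stt3b over Stt3a was 0.29 and 0.75 in WT and between 0.64 and 0.73 in the other libraries. Sec24d over Sec24c stayed between -1.37 and -1.22 over the 6 libraries. Kdelr2 over Kdelr1 ranged from -0.92 to -0.60, both in DD. With 2 libraries against 2, an exact permutation test cannot reach p = 0.05, so these ratios were not tested.

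**Figure D4:**
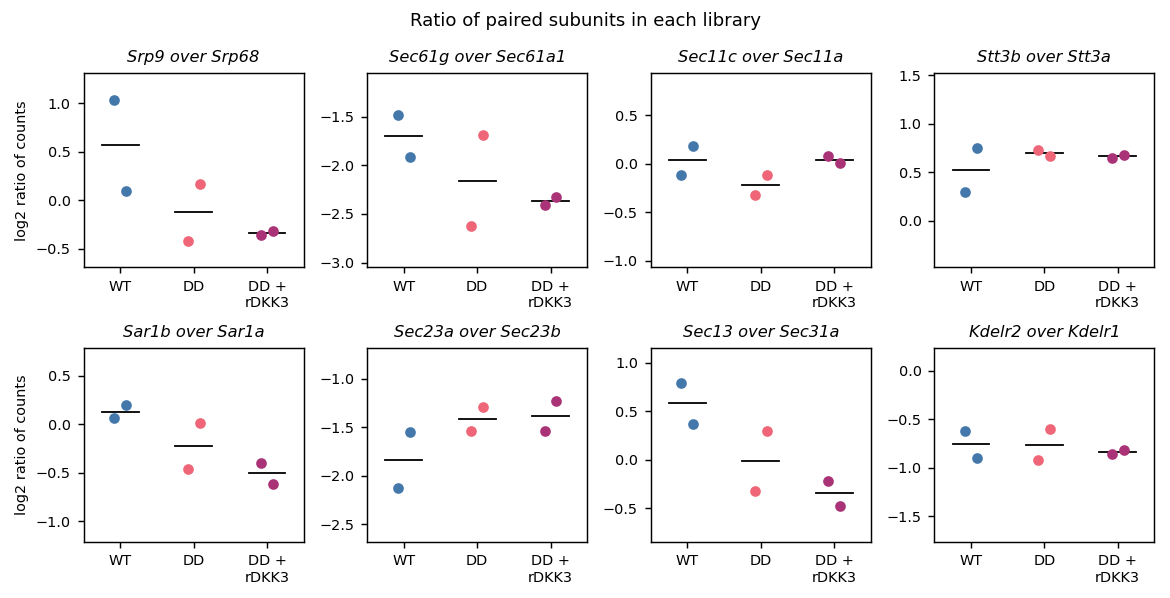
Log2 ratio of counts of paired subunits in each library (points, 2 per group) with the group mean (line), each panel spanning 2 log2 units. WT points are highest for Sar1b over Sar1a and for Sec13 over Sec31a and lowest for Sec23a over Sec23b, and the groups overlap for Stt3b over Stt3a and Kdelr2 over Kdelr1.

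The rest of the pathway was counted in 5 lists of other genes for targeting and insertion, translocation, glycosylation, COPII and cargo, and the COPI coat. Of the 97 of these genes tested, 71 were below 0 in DD against WT (median -0.13), 54 in DD + rDKK3 against DD (median -0.02) and 68 in DD + rDKK3 against WT (median -0.14). None passed an adjusted p of 0.05 in edgeR. At an unadjusted p under 0.05 there were 5 lower and 0 higher in DD against WT, 0 in DD + rDKK3 against DD, and 15 lower and 5 higher in DD + rDKK3 against WT. The shares of all genes were 3.99% lower and 4.27% higher in the first of these comparisons, and 8.0% lower and 7.34% higher in the last.

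In DD against WT the smallest p belonged to 2 small ER membrane proteins. Krtcap2, an OST subunit, had a log2 fold change of -0.66 ± 0.21, and Dpm3, which anchors the synthase of dolichol-phosphate-mannose, one of -0.66 ± 0.24 (adjusted p = 0.586 each, edgeR). For DD + rDKK3 against DD they were Get1 (-0.43 ± 0.21), a receptor subunit for tail-anchored proteins, and Gbf1 (0.39 ± 0.19), which activates ARF for the COPI coat. Both had an adjusted p of 1.00 (edgeR). For DD + rDKK3 against WT they were the OST subunit Tmem258 (-0.70 ± 0.19) and Gbf1 (0.69 ± 0.19), with an adjusted p of 0.322 each (edgeR). Tmem258 and Dpm3 have coding sequences of 345 and 276 bases and Gbf1 one of 5583. Get1 has one of 804 bases, and coding length was not tallied over the 97 genes.

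Markers of acinar and other cells moved between libraries. The 18 acinar enzyme genes were all lower in DD than in WT (median -0.71), all higher in DD + rDKK3 than in DD (median 0.25), and their summed level was 235623 and 180221 CPM for WT, 151395 and 133472 for DD, and 181950 and 149334 with rDKK3. None of the 18 passed an adjusted p of 0.05 (edgeR). At an unadjusted p under 0.05, 8 were lower in DD than in WT, against 3.99% of all genes. In DD + rDKK3 against DD 1 was higher, against 0.597%. In DD + rDKK3 against WT 3 were lower, against 8.0%. None was at 0 in any group. Of 11 fibroblast and stellate cell markers, none was at 0 in all libraries, and their summed level was levels of 120 and 45.6 CPM in WT, against 69.8 and 823 in DD and 166 and 926 after rDKK3. Summed levels of the 9 macrophage markers were 133 and 58.7, 71.0 and 259, and 86.9 and 199 CPM in the same order, with DD 2 and DD + rDKK3 2 highest in both lists. The 10 ductal markers summed to 2214 to 3235 CPM, the 8 endothelial ones to 118 to 196 and the 8 islet ones to 166 to 303 over the 6 libraries. Without DD 2 and DD + rDKK3 2, the members' median in DD against WT was -0.13, against 0.0007 over all genes. In bulk RNA, fewer acinar cells and less RNA per cell cannot be told apart, and the part of cell composition in the members' levels was not tested.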

How the data were processed

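Bulk RNA-seq was measured in 6 libraries, 2 per group. Per the labels and the study's methods, the authors aligned directional paired-end reads with STAR 2.7.9a to GRCm39, and alignments over GENCODE exons were counted in union mode and summed per gene. The deposited values are these raw counts, not normalised, and replicates were not pooled. Counting by gene cannot separate exons, and reads shared with pseudogene copies are uncertain. Of the table, 92 spike-in rows with 0 counts were left out.

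The members, lists and tests were chosen with earlier results of these data known. Genes were filtered with filterByExpr (minimum count 10, total 15) in edgeR 4.0.16 under R 4.3.3, scaled by TMM and fitted with the quasi-likelihood model over all 3 groups, with two-sided p-values adjusted over 14738 genes. Residual and prior degrees of freedom were 3 and 4.634, and the common biological coefficient of variation was 0.2148. SE is the fold change over the root of F. The procedure was tested on simulated data. Alternatives were DESeq2 1.42.0, limma-voom 3.58.1, other scalings, no filter, fewer libraries, a replicate block and length offsets. Lengths came from GENCODE M39 and promoters from RefSeq. Levels are given for all 43 members. Fold changes are given per gene for up to 4 members with the smallest p in each direction of each comparison and for paralogs in DD against WT. For other pathway genes they are given for the 2 with the smallest p.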

Additional observations from a re-analysis of the deposited data

How the results depend on the processing

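No member was called under DESeq2, limma-voom, another scaling, or without any 1 library. Without the low-count filter edgeR called 1 member in DD against WT (Sec11c, log2 fold change -0.65) and 3 in DD + rDKK3 against WT, Sar1b (-0.73) and Sec11a (-0.63) among them. In DD against WT that fit called 528 of 26506 genes, against 6 of 14738 in the main fit. The members at an unadjusted p under 0.05 in DD against WT, 7 as reported, numbered 2 with library size alone, 11 without the filter, 12 without both number 2 libraries of the Dkk3-null mice, 2 with only the 2 groups fitted, and 4 with either length offset. They ranged from 0 to 16 without 1 library. In DD + rDKK3 against DD the range was 0 to 3. In DD + rDKK3 against WT, 16 as reported, there were 7 with library size alone, 2 without both number 2 libraries, 6 with the coding length offset, and 0 to 17 without 1 library. The medians with library size alone were 0.037 in DD against WT and 0.0185 in DD + rDKK3 against WT, and without 1 library they ranged from -0.305 to -0.0152 and from -0.327 to 0.0233. The cause was not tested.

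The direction of some single genes that were never called turned. In DD against WT, library size alone gave 0.0912 for Stt3a, 0.028 for Sar1a, 0.13 for Kdelr1 and 0.118 for Kdelr2. The coding length offset gave -0.0517 for Sec31a, -0.0871 for Sec24c, -0.0945 for Stt3b, 0.00625 for Sar1a, -0.0623 for Sec23b, -0.111 for Sec24d, 0.103 for Kdelr1 and 0.0814 for Kdelr2. The transcript length offset gave -0.0423 for Stt3b, 0.0694 for Kdelr1 and 0.0247 for Kdelr2. Leaving out 1 library gave -0.0719 to 0.602 for Sec24a, -0.357 to 0.15 for Stt3a, -0.0447 to 0.193 for Stt3b, -0.405 to 0.0718 for Sar1a, -0.0839 to 0.295 for Sec23b, -0.17 to 0.0272 for Kdelr1 and -0.314 to 0.161 for Kdelr2. In DD + rDKK3 against DD, it gave -0.526 to 0.0209 for Srp14, -0.517 to 0.0143 for Sar1b, -0.607 to 0.159 for Ostc, -0.387 to 0.00618 for Sec11a and -0.0672 to 0.606 for Sec24a. Without both number 2 libraries of the Dkk3-null mice, Kdelr1 was at 0.00929 in DD against WT, and in DD + rDKK3 against DD Srp14 was at 0.0844, Sar1b at 0.168, Ostc at 0.0558 and Sec11a at 0.0749.

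The titles number DD and DD + rDKK3 libraries alike, but their labelled ages differ and no shared animal is named. Deviations of same-numbered libraries correlated at -0.39 (WT and DD), -0.25 (WT and DD + rDKK3) and 0.65 (DD and DD + rDKK3). The main fit paired no libraries. With the replicate block over all 6 libraries, 3 members were at an unadjusted p under 0.05 in DD against WT. Of all 14738 genes, 1107 were. Members at that p numbered 0 in DD + rDKK3 against DD and 12 in DD + rDKK3 against WT, and no member was called. With a block over the Dkk3-null libraries alone, 194 of 14665 genes were called in DD + rDKK3 against DD, but 0 members. Few residual degrees of freedom remained in that fit, so its calls are uncertain.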
